A study of Mus musculus with 6 samples.

Results

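The Clca family is a group of 7 mouse genes, Clca1, Clca2, Clca3a1, Clca3a2, Clca3b, Clca4a and Clca4b, that code for related proteins of epithelia and some other tissues. All probe sets whose gene symbol or Entrez identifier belongs to 1 of these genes were taken, which gave 11 of the 45037 tested probe sets and 7 of 18193 measured genes. Of these probe sets, 10 name a single member and 1 is shared by Clca3a1 and Clca3a2. Array annotations have used older symbols for this family, in which Clca3a1 was called Clca1 and Clca3a2 was called Clca2, so members were matched by Entrez identifier. The family was chosen by its log2 intensities in caNrf2 against control skin, which were known when it was picked. Its values in that contrast are therefore a description. Counts of members called by the fit are given beside the share called among all probe sets, with no p for any single member, and nothing is supported with them.

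The data are Affymetrix array intensities of RNA from back skin, sampled whole. The first group held 3 female K5cre-caNrf2 mice with the genotype tg/tg, in which Cre under the keratin 5 promoter turns on caNrf2, an Nrf2 transcription factor that is always active. The second group held 3 female K5cre-wt mice with the genotype tg/wt, which served as controls. All 6 pups came from the same litter, were of a mixed FVB/N and C57BL/6 background, were taken on postnatal day 2.5 and carried K5cre. Keratin 5 is made by basal keratinocytes of epidermis and follicle, so the transgene acts in a subset of the cells whose RNA was measured. The labels are not uniform, since caNrf2 mice are also listed as tg/g and CaNrf2 appears as the treatment of controls, so groups follow the sample titles. Each mouse gave 1 array.

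Clca proteins carry a metalloprotease domain and a von Willebrand factor type A domain, and are cut into fragments after synthesis. They were first described as calcium-activated chloride channels, but are now regarded as modulators of such channels. The human protein CLCA1 holds the chloride channel ANO1 at the cell surface. Family members mark particular epithelia, among them goblet cells, intestinal villi and stratified squamous epithelium.

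The genes lie side by side on mouse chromosome 3. RefSeq promoter windows, 250 bases before to 50 bases after the start site (assembly GRCm38.p6), were used for 3 of the 7 members, Clca3a1, Clca4b and Clca2. The windows of Clca3a1 and Clca2 are shown, 5′ to 3′, because these members had signal in the skin. They hold no match to the element searched, so no base is in capitals.
Clca3a1 at chr3:144760928-144761227, minus strand: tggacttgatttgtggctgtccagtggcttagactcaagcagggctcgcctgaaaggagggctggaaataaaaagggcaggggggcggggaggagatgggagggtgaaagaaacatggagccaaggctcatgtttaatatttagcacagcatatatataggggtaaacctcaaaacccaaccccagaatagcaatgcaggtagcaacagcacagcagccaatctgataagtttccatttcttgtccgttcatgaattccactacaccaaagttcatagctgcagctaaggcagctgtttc
Clca2 at chr3:145099057-145099356, minus strand: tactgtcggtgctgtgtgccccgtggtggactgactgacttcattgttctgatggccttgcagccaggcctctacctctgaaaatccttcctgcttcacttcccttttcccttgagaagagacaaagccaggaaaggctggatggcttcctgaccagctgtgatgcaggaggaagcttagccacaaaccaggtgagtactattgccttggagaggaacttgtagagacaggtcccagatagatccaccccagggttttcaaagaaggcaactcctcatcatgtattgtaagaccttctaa

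The antioxidant response element to which Nrf2 binds with small Maf proteins was searched as TGACNNNGC on both strands. It was found in 1 of the 3 Clca windows, that of Clca4b, as TGACCAGGC starting at base 18 counted from the start site. Of all 32851 promoter windows in the table, 12.4% held the element. No match in the other windows says only that these letters are absent from these 300 bases.

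Before the members, the labels and arrays were checked. Nfe2l2, which codes for Nrf2, read 1136, 1222 and 1242 in caNrf2 skin, against 825, 726 and 774 in control skin. The Nrf2 target Nqo1, a quinone reductase, read 1315, 1432 and 1512 in caNrf2 skin, against 72.6, 66.2 and 64.3 in control skin. All 10 Nrf2 check genes, chosen as known targets with Nfe2l2 itself, were higher in caNrf2 skin. Correlations of log2 intensity between arrays ran from 0.9976 to 0.9980 within caNrf2, from 0.9973 to 0.9977 within control and from 0.9949 to 0.9962 between the groups. For Actb the log2 ratio of 3′ over 5′ probe sets, which reports on RNA quality, lay between 0.52 and 0.54 in caNrf2 skin and between 0.48 and 0.50 in control skin. The part of that difference in the results below was not tested. Across all probe sets the median log2 fold change was near 0 (-0.0040).

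Members with signal in newborn skin were Clca3a1, Clca3a2 and Clca2, and all 6 of their probe sets read lower in caNrf2 than in control skin. The largest difference was in Clca3a2, at 62.9% of the control level by its brighter probe set. The other 4 genes, Clca1, Clca3b, Clca4a and Clca4b, read no higher than Y-linked probe sets. In these female mice Y-linked probe sets gauge the background, and their 20 probe sets had group means from 6.46 to 61.6. Of these, 14 had both group means under 20, so the upper part of the range rests on the few others. Affymetrix intensities of different probe sets are not on a shared scale, so members are compared between genotypes and not with each other.

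Clca3a2 is known in mice from the mammary gland. Its brighter probe set, 1419463_at, read 989, 864 and 909 in caNrf2 skin, against 1367, 1445 and 1583 in control skin. The groups did not overlap, and each control array was at least 1367. The means were 921 ± 63 in caNrf2 and 1465 ± 109 in control skin (intensity ± SD, n = 3 each), a log2 fold change of -0.67 ± 0.08 (SE from limma).

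A dimmer Clca3a2 probe set, 1437578_at, read 94.3, 131 and 110 in caNrf2 skin, against 154, 161 and 200 in control skin. Here too every control array exceeded every caNrf2 array. The means were 112 ± 18.5 in caNrf2 and 172 ± 24.6 in control skin (SD, n = 3 each). Relative to its mean the SD was 16.5% in caNrf2 and 14.3% in control skin, against 6.84% in caNrf2 and 7.47% in control skin for the brighter probe set. The log2 fold change was -0.62 ± 0.13 (SE). The log2 fold changes of the Clca3a2 probe sets lay 0.05 apart, less than their combined SE of 0.15. Without caNrf2 replicate 1 the gap was 0.22, above that SE, and without caNrf2 replicate 2 or control replicate 3 it was 0.12 or 0.11.

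Clca3a1, described in mouse lymphatic endothelium among other tissues, lies next to Clca3a2 in the gene order. Its probe set 1417852_x_at read 222, 239 and 225 in caNrf2 skin, against 294, 277 and 310 in control skin. The groups did not overlap, with means of 229 ± 9.34 in caNrf2 and 294 ± 16.4 in control skin (SD, n = 3 each) and a log2 fold change of -0.36 ± 0.07 (SE). The x in such a name is Affymetrix's mark for probes that may bind other sequences as well.

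The second Clca3a1 probe set, 1417853_at, carries no such mark. It read 116, 145 and 115 in caNrf2 skin, against 155, 169 and 194 in control skin. caNrf2 replicate 2 stood above the other caNrf2 arrays but below all control arrays. The means were 125 ± 17.1 in caNrf2 and 172 ± 19.8 in control skin, a log2 fold change of -0.47 ± 0.11 (SE). The log2 fold changes of both Clca3a1 probe sets were 0.11 apart, within their combined SE of 0.13. Without caNrf2 replicate 2 or control replicate 1 the gap was 0.18, above that SE.

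The probe set 1460259_s_at is annotated to Clca3a1 and Clca3a2 together and cannot be assigned to either. It read 964, 929 and 940 in caNrf2 skin, against 1396, 1396 and 1480 in control skin. The means were 945 ± 18.0 in caNrf2 and 1424 ± 48.4 in control skin (SD, n = 3 each). Relative to the mean these SDs, 1.91% in caNrf2 and 3.40% in control skin, were the smallest of the 6 probe sets with signal. Its log2 fold change of -0.59 ± 0.06 (SE) lay between those of the Clca3a1 probe sets and those of the Clca3a2 probe sets. How far any of these probe sets also binds RNA of the related gene was not tested.

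Clca2 is the member known from stratified squamous epithelium, and its human counterpart responds to p53 and binds beta-4 integrin. Its probe set, 1438109_at, read 237, 219 and 221 in caNrf2 skin, against 292, 257 and 283 in control skin. The groups did not overlap, but control replicate 2 lay nearer to the caNrf2 arrays than the other controls. The means were 226 ± 9.68 in caNrf2 and 277 ± 18.2 in control skin (SD, n = 3 each), a log2 fold change of -0.30 ± 0.07 (SE). The level was 81.4% of control, the smallest difference among the 6 probe sets with signal.

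The 4 remaining members gave no reading above background in either genotype. Clca1, a secreted product of goblet cells, read 10.3 to 11.9 in caNrf2 and 11.6 to 12.6 in control skin by 1416306_at. By its other probe set, 1459889_at, it read 9.45 to 11.9 in caNrf2 and 9.08 to 10.9 in control skin. Clca4a, a gene of intestinal villi, read 19.7 to 21.8 in caNrf2 and 19.7 to 20.6 in control skin.

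Clca3b, described in mouse smooth muscle, read 11.3 to 13 in caNrf2 and 10.1 to 11.7 in control skin. Clca4b read 8.17 to 9.21 in caNrf2 and 7.71 to 7.87 in control skin. Groups of the Clca4b probe set did not overlap, though every array lay in the background range, and a level difference cannot be read from it. The pseudogene Clca4c-ps, which lies between Clca3b and Clca4b and is no member, had means of 6.89 in caNrf2 and 7.14 in control skin.

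**Figure D1:**
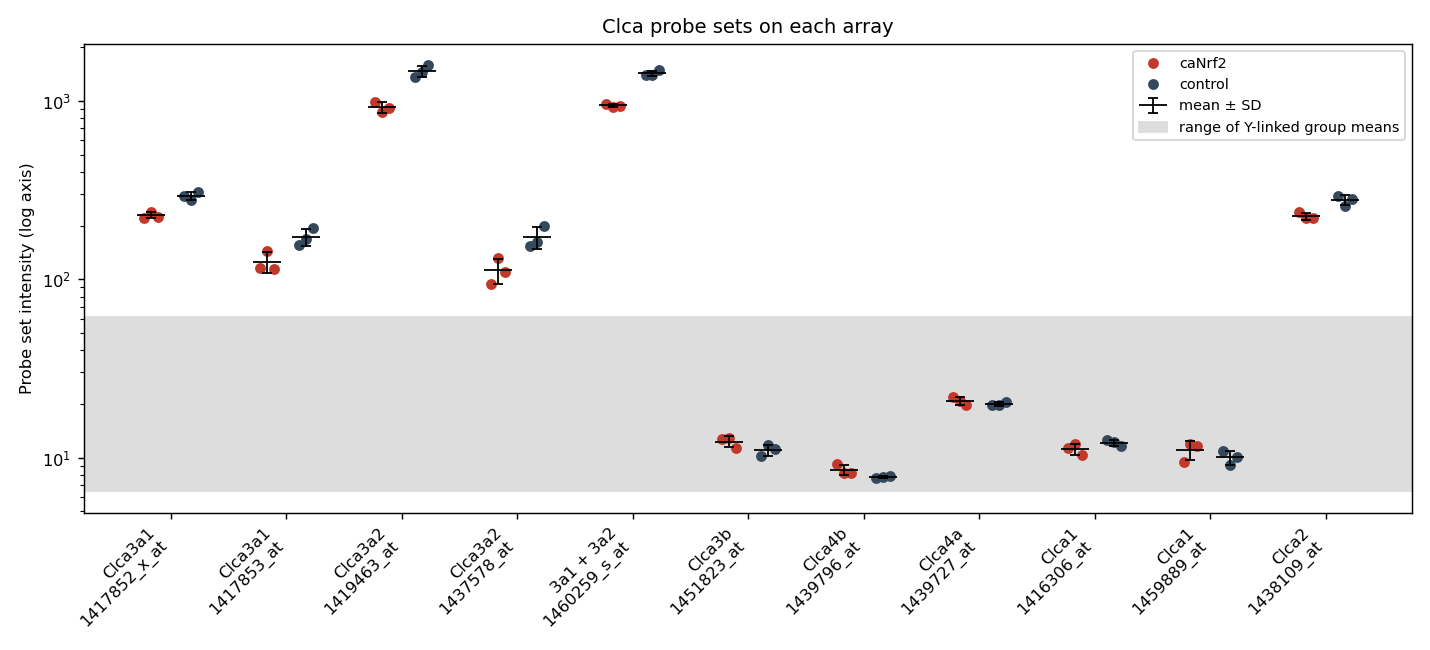
Intensity of each Clca probe set on each array (log axis), in chromosome order of the genes, with caNrf2 points left of control points, bars for mean ± SD of 3 arrays and a grey band for the range of Y-linked group means (6.46 to 61.6). The 6 probe sets of Clca3a1, Clca3a2 and Clca2 stand above the band with all caNrf2 points below all control points, and the other 5 lie inside it.

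Counted over all 11 probe sets, 4 were called lower in caNrf2 skin by limma with Benjamini-Hochberg adjustment over all 45037 probe sets, 0 were called higher and 7 were not called. At an unadjusted p under 0.05 the counts were 6 lower and 0 higher. The background share was not computed at an unadjusted p, here or for the neighbours and lists below, so nothing is read from such counts. For limma calls after adjustment the background share was 0.633% lower and 1.04% higher over all probe sets. Over the 25066 above the Y-linked range it was 0.89% lower. Since the family was picked with this contrast known, nothing is read from that comparison. The 4 called were 1419463_at and 1437578_at of Clca3a2, the shared 1460259_s_at, and 1417852_x_at of Clca3a1. Groups were separate with caNrf2 lower in 6 of the 11, against 11.7% of all probe sets and 16.9% of those above the Y-linked range, and with caNrf2 higher in 1, against 11.4%. The median log2 fold change over the 11 was -0.30, beside -0.0040 over all probe sets.

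The call count fell when 1 of several arrays was left out, and the share called lower over all probe sets fell as well. Without caNrf2 replicate 1, caNrf2 replicate 3, control replicate 1 or control replicate 3, 2 probe sets were called, which were 1419463_at and 1460259_s_at in each case. With an intensity trend, or with dim probe sets left out, all 6 probe sets with signal were called lower, Clca2 included. Over all probe sets tested, 1.28% were called lower with the trend and 2.05% with dim probe sets left out, against 0.633%. That share was 0.18% to 0.33% when 1 of the arrays just named was left out. Clca2 was also called lower where each gene was represented by its brightest probe set alone.

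Some arrays deviated in 1 direction across the probe sets with signal, and others did not. Control replicate 3 was the highest of all arrays in 5 of the 6 probe sets with signal, all except Clca2, and had a median log2 deviation of 0.10 from the control mean. The medians of control replicates 1 and 2 were -0.06 and -0.05. Among caNrf2 arrays, replicate 2 was the highest for both Clca3a1 probe sets and for 1437578_at, but the lowest for 1419463_at, 1460259_s_at and Clca2. Over the 6 arrays, log2 values of the probe sets correlated with r from 0.72 (1417853_at with Clca2) to 0.99 (1419463_at with 1460259_s_at). These coefficients contain the difference between genotypes that all 6 share, and the arrays are the same.

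In the gene order of chromosome 3, Clca3a1 and Clca3a2 stand at one end of the family and Clca2 at the other. The 4 members without signal and the pseudogene stand between them. The 5 measured genes before Clca3a1 were Pkn2, Lmo4, Hs2st1, Selenof and Sh3glb1, and the 5 after Clca2 were Odf2l, Col24a1, Znhit6, Ccn1 and Gm17501. Of these 10 neighbours, limma called 0 lower and 0 higher, and also 0 and 0 at an unadjusted p under 0.05. The background of calls after adjustment was 0.786% lower and 1.51% higher over 18193 genes, and it was not computed at an unadjusted p. Their log2 fold changes ran from -0.18 in Pkn2, a protein kinase, to 0.20 in Ccn1, a secreted matrix protein, with a median of -0.01. Sh3glb1 and Odf2l, were singled out for their place beside the family. Sh3glb1, next to Clca3a1, had means of 1997 ± 40.9 in caNrf2 and 1990 ± 59.6 in control skin. Odf2l, next to Clca2, had means of 88.5 ± 7.89 in caNrf2 and 87.1 ± 5.04 in control skin (SD, n = 3 each). Of the 4 neighbours with the smallest p, Znhit6 had a log2 fold change of -0.13 ± 0.07 and Lmo4 one of -0.11 ± 0.09 (SE).

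**Figure D2:**
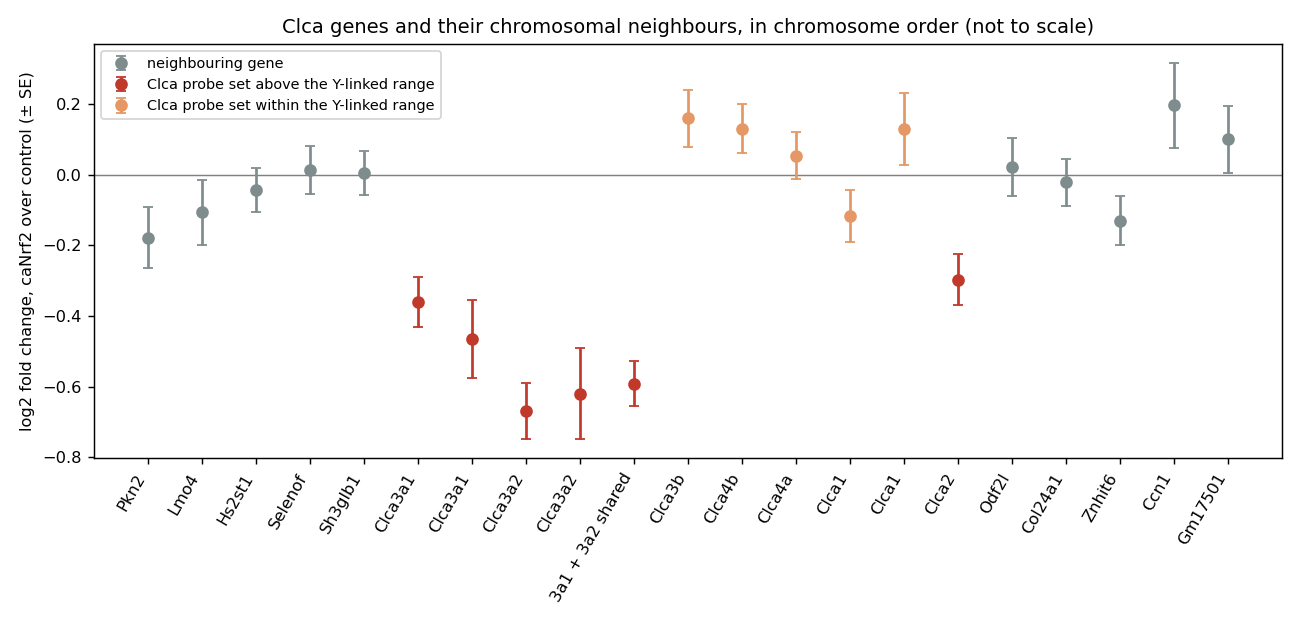
The log2 fold change of caNrf2 over control (y axis, ± SE) for Clca probe sets and the 5 measured genes on each side, in chromosome order and not to scale. The 6 probe sets with signal lie between -0.67 and -0.30, and the neighbours between -0.18 and 0.20.

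Neither list of chloride channel genes gave a call. Over all 18193 genes 0.786% were called lower and 1.51% higher, so 0 calls in a short list says little. The same shares are the background for the mucus, interleukin, p53 and p63, and integrin lists below. Gabrp, a channel subunit named further below, was not in either chloride channel list. Of 9 measured anoctamins and bestrophins, the calcium-activated chloride channels, 0 were lower, 0 higher and 9 not called (limma; 0 lower and 2 higher at an unadjusted p under 0.05), with a median log2 fold change of -0.02. Ano1, the partner of human CLCA1, chosen after its value was seen, read 696, 648 and 657 in caNrf2 skin, against 703, 667 and 658 in control skin. Its groups overlapped and its log2 fold change was -0.02 ± 0.07 (SE). Ano10 had the smallest p of this list, with 442 ± 31.0 in caNrf2 and 357 ± 11.1 in control skin (log2 fold change 0.31 ± 0.07; limma, adjusted p = 0.0752). Best1 gave 0.15 ± 0.08 and Ano6 -0.15 ± 0.08, neither called. Best2, the other of the 2 higher at an unadjusted p, had means of 26.8 in caNrf2 and 22.8 in control skin, both in the Y-linked range. Of 24 other chloride channels and their subunits, 0 were called either way (4 lower and 1 higher at an unadjusted p under 0.05) and the median was -0.04. In that list Lrrc8e, a subunit of the volume-regulated channel, gave -0.25 ± 0.08, Clic4 -0.18 ± 0.07 and Clcn2 -0.27 ± 0.11. Slc26a4, the 1 higher at an unadjusted p, had means of 20.9 in caNrf2 and 16.5 in control skin, both in the Y-linked range.

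Mucus genes, the usual company of Clca1, mostly read within the Y-linked range, as Clca1 did. Clca1 lay in the low part of that range, and some mucus genes, among them Tff2, Zg16 and Muc13, in its upper part. Of 21 measured, 15 had both group means in the Y-linked range, and 0 were called either way (limma; 1 lower and 3 higher at an unadjusted p under 0.05). The median was 0.10. Tff2, a trefoil peptide of mucus, had means of 57.2 in caNrf2 and 44.2 in control skin. Zg16 had means of 60.1 in caNrf2 and 51.2 in control skin, and Muc13 of 60.9 in caNrf2 and 54.2 in control skin. These 3 genes, the ones higher at an unadjusted p, all lay in the Y-linked range, where no direction is read. The membrane mucin Muc15 had means of 555 in caNrf2 and 697 in control skin (-0.33 ± 0.10).

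Interleukin 4 and 13 induce Clca1 in airway epithelium, and genes of that response were measured as a list. Of 18, 1 was lower, 0 were higher and 17 were not called (2 lower and 3 higher at an unadjusted p under 0.05), with a median of 0.08. The 1 that fell was Arg1, arginase 1, which read 275, 288 and 314 in caNrf2 skin, against 578, 582 and 504 in control skin. Its log2 fold change was -0.92 ± 0.08 (limma, adjusted p = 0.000266), and it was called under every alternative run. Il4, Il13 and Retnlb, the 3 higher at an unadjusted p, had group means under 20 in both genotypes, in the Y-linked range, where no direction is read.

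The p53 and p63 list was measured because human CLCA2 responds to p53. Of 19 genes, 1 was higher, 0 were lower and 18 were not called (2 lower and 1 higher at an unadjusted p under 0.05), with a median of -0.03. The 1 that rose was Sfn (14-3-3 sigma), with 4940 ± 51.9 in caNrf2 and 3866 ± 172 in control skin. Its log2 fold change was 0.35 ± 0.06 (limma, adjusted p = 0.0267), but the call was lost when any array other than control replicate 2 was left out. Btg2 gave -0.23 ± 0.07, Polk -0.18 ± 0.07 and Sesn2 -0.13 ± 0.07. Trp63, the p53 relative of basal keratinocytes, chosen after its value was seen, read 2806 to 2862 in caNrf2 and 2846 to 3026 in control skin.

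Beta-4 integrin binds human CLCA2 and anchors basal keratinocytes in hemidesmosomes. Its gene Itgb4 read 706, 627 and 693 in caNrf2 skin, against 556, 580 and 480 in control skin, without overlap. Its log2 fold change of 0.33 ± 0.09 did not pass (limma, adjusted p = 0.104). Of 10 genes of this list 0 were called either way (0 lower and 3 higher at an unadjusted p under 0.05), and the median was -0.02. The tetraspanin Cd151, which sits with integrins in hemidesmosomes, gave 0.33 ± 0.07 (limma, adjusted p = 0.0620), Itga3 0.19 ± 0.08 and Lama3 -0.12 ± 0.09.

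Whole skin holds many cell types, and in such samples fewer cells of a type and less RNA per cell cannot be told apart. Marker lists of 15 cell types therefore stand beside the Clca values. Of 99 measured marker genes, limma called 6 lower and 0 higher (22 lower and 3 higher at an unadjusted p under 0.05). The lower count was 2 without caNrf2 replicate 3 and 3 without caNrf2 replicate 1, control replicate 1 or control replicate 3. Over all 18193 genes, 0.786% were called lower and 1.51% higher, and the share at an unadjusted p was not computed. Groups were separate with caNrf2 lower in 11.7% of all probe sets and in 16.9% of those above the Y-linked range. Hair follicle markers had a median log2 fold change of -0.22, with 8 of 11 genes lower without overlap and Krt75 called. Summed, they read 49233 to 50595 in caNrf2 and 56489 to 58169 in control skin. Such sums, here and below, are carried by the brightest probe sets, which share no scale with the others. Melanocyte markers had a median of -0.22, with 5 of 6 lower without overlap, 0 called and all 6 lower at an unadjusted p under 0.05. Summed, these read 9765 to 10798 in caNrf2 and 11554 to 12216 in control skin. The part of these shifts in the Clca values was not tested.

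Sebaceous markers had a median of -0.12, with Scd3 (-0.92 ± 0.11) and Elovl3 (-0.38 ± 0.07), enzymes of lipid synthesis, called among 5. The sebaceous sum ran from 8961 to 9527 in caNrf2 and from 9322 to 10501 in control skin. The keratinocyte lists had medians nearer to 0. Some suprabasal and granular markers read close to the highest intensities of the arrays, 20444 to 21290. Whether differences are compressed there was not tested. Basal markers summed to 36521 to 36711 in caNrf2 and 36921 to 37807 in control skin, with Krt15 called lower among 8 and a median of -0.06. Suprabasal markers had a median of 0.04 with 0 of 7 called, and 0 at an unadjusted p under 0.05. Granular markers had a median of 0.04, with the envelope precursor Ivl (-0.55 ± 0.08) called among 8. In the adipocyte list Lep (-0.58 ± 0.07) was called among 5.

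Lymphatic endothelium, where Clca3a1 is known, had markers that summed to 992 to 1060 in caNrf2 and 1002 to 1057 in control skin. The 6 markers had a median of -0.06, and 0 were called, nor did any pass an unadjusted p under 0.05. Lyve1, a receptor of that endothelium chosen after its value was seen, read 348, 383 and 349 in caNrf2 skin, against 378, 374 and 363 in control skin. Blood endothelium (median 0.05), smooth muscle and pericytes (-0.02), fibroblasts (-0.04), striated muscle (-0.03), immune cells (0.03), mast cells (0.08) and nerve sheath (-0.05) had 0 called (limma). At an unadjusted p under 0.05 these held 1 higher in blood endothelium, 1 lower in striated muscle and 1 each way in immune cells. No marker was at 0, since RMA values have a floor above it.

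**Figure D3:**
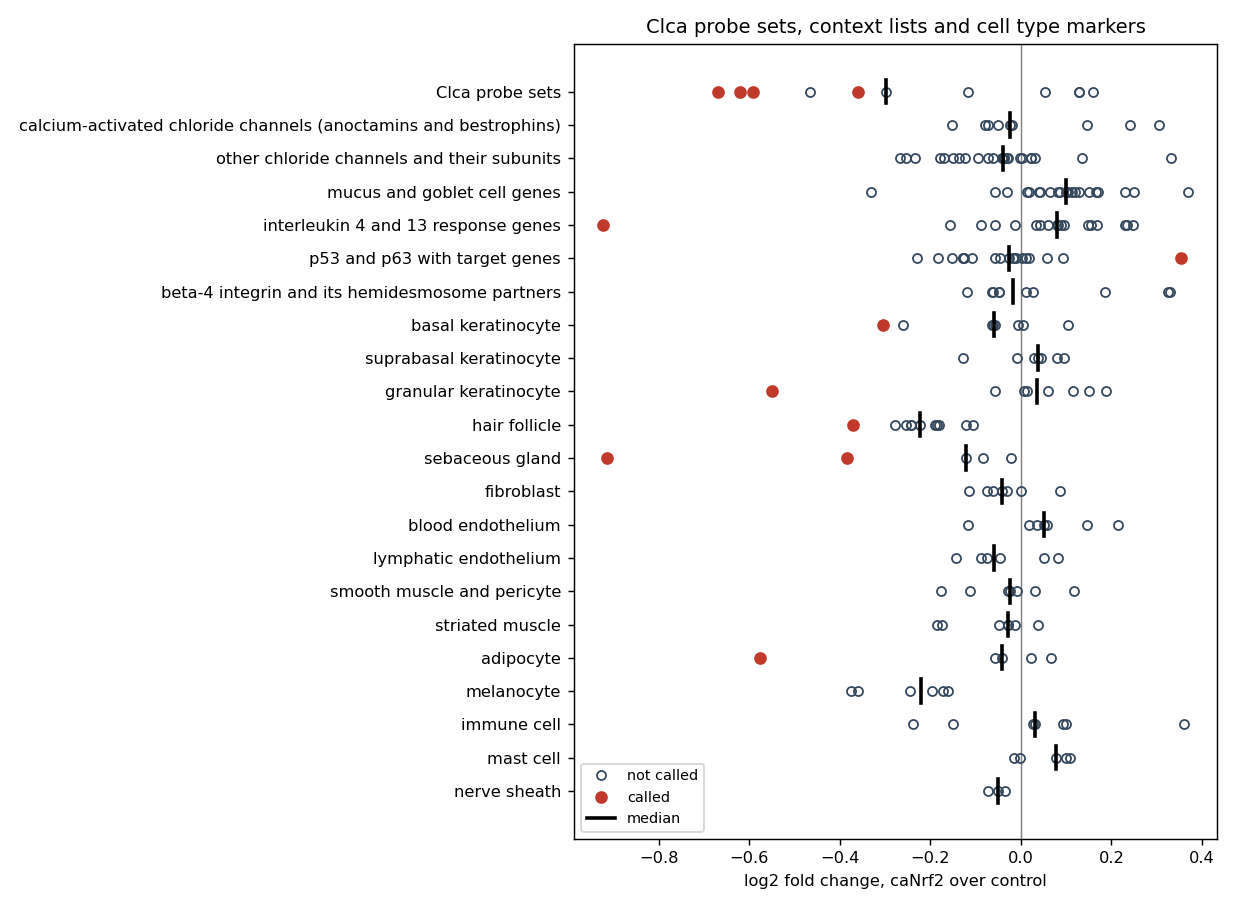
The log2 fold change of caNrf2 over control (x axis) for each Clca probe set, each context gene and each cell type marker, with filled points for those called by limma and a black bar for the median of each list. The Clca median of -0.30 is over 11 probe sets, with several for some genes, and the family was picked with this contrast known. The hair follicle and melanocyte medians of -0.22 use only the brightest probe set of each gene. The Clca median is therefore not ranked against them. The 5 Clca probe sets in the background range lie between -0.12 and 0.16.

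Genes with the most similar pattern were sought by Pearson correlation of log2 intensity over the 6 arrays, among 758 genes whose mean over all 6 arrays exceeded the Y-linked range and whose log2 values spanned at least 0.5. A gene could pass through the genotype in which it is high. These coefficients contain the difference between genotypes, and with 6 arrays many genes reach high values. Clca2 was followed most closely by Exph5 (r = 0.997), which codes for a Rab-binding protein of vesicle transport. Exph5 had means of 246 in caNrf2 and 314 in control skin. Next came Gabrp (0.988), a subunit of a GABA-gated chloride channel, with means of 416 in caNrf2 and 631 in control skin, then the homeobox gene Dlx1 (0.986), Sytl2 (0.985) and Col11a1 (0.982).

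For Clca3a2 by 1419463_at the closest were Id4 (0.989), an inhibitor of helix-loop-helix factors, and the desmosomal cadherin Dsc2 (0.986), followed by Skint10 (0.986), Tnik (0.984) and Map2k6 (0.983). Dsc2 had means of 123 in caNrf2 and 195 in control skin. By 1437578_at they were Minar2 (0.967), Mfsd8 (0.964), Atp6v1b1 (0.948), Trpc2 (0.946) and Traf3ip1 (0.915), so the Clca3a2 probe sets shared none of their 5 closest genes. The shared probe set 1460259_s_at was closest to Lyg2 (0.993), Id4 (0.992), Dsc2 (0.992), Slc5a8 (0.986) and Krt12 (0.985), a keratin best known from cornea.

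For Clca3a1 by 1417852_x_at the closest were Ivl (0.972), Krt12 (0.970), Prss35 (0.968), Tchhl1 (0.964) and Trpc2 (0.963). By 1417853_at they were Minar2 (0.993), Atp6v1b1 (0.977), a subunit of the proton pump, Grik3 (0.952), Pfkfb3 (0.934) and Gprasp2 (0.920). Minar2 had means of 59.0 in caNrf2 skin, within the Y-linked range, and 88.6 in control skin, so it was a candidate through its control arrays.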

How the data were processed

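The deposited intensity values are probe set summaries on a linear scale, made by the authors with RMA per the submitters' processing notes. The version is not given in the sources used here. RMA quantile-normalizes arrays, which hides a shift of most transcripts in 1 direction. Per the labels' protocols, cRNA was labelled from 2 ug of total RNA.

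Of 45101 probe sets, 64 controls were left out. Symbols came from the platform annotation, updated by Entrez identifier with a RefSeq table of GRCm38.p6 (34741 of 34945 single-symbol probe sets matched). On the log2 scale, limma 3.58.1 was run (R 4.3.3; lmFit and eBayes, group as the only term) over all 45037 remaining probe sets, with Benjamini-Hochberg adjustment and a threshold of 0.05. SE are from this fit. Other genes were each represented by their brightest probe set (mean of all arrays), which gave 18193 genes. In simulated data on 45037 probe sets, 200 were changed, with noise drawn from the residual SD of each probe set. Of changes of 0.25 on the log2 scale 0% were recovered, of 0.5 60%, of 1 98% and of 2 100%. Fewer probe sets were changed than were called in the data, so these rates need not hold for the data. The number of arrays limits the precision.

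Members and lists were chosen with earlier results of these data known. Of 233 list entries, 210 were measured and the rest are not analysed here. Genes named are all members, the 4 with the smallest p of each context list and of the neighbours, and the 5 most like each probe set with signal, uncharacterised symbols left out of the last. Markers named are those called. Outside these rules, Nfe2l2 and Nqo1 were named as checks, and Ano1, Trp63, Lyve1, Sh3glb1 and Odf2l were picked as said above. Promoters were searched in Python 3.11.15, and those of other members are not reported here. A comparison of Clca proteins was planned but not run. Alternatives changed the variance model, weights, pseudocount, normalization, probe sets, motif, replicate block and arrays.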

Additional observations from a re-analysis of the deposited data

How the results depend on the processing

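All 6 Clca probe sets with signal stayed negative in every alternative in which they were tested, which was largely fixed in advance. Some alternatives leave the fold change itself as it was, and groups that do not overlap keep their sign when an array is left out. The count of Clca probe sets called lower was 4, and became 2 with a further quantile normalization, 2 with the replicate block, and 2 to 4 with any array left out. It was 3 with log2(value + 16) and with 1 probe set per gene, 4 with array weights or median centring and 6 with an intensity trend, with or without robust variances, or with dim probe sets left out. The probe sets 1419463_at and 1460259_s_at were called in all 15 and 14 alternatives that held them, 1417852_x_at in 8 of 15, 1437578_at in 6 of 14, and 1417853_at and Clca2 in 4 of 14 and 4 of 15. No Clca probe set was called higher in any alternative. Context genes called lower numbered 1, and 2 with an intensity trend, with or without robust variances, and with the median probe set per gene. Marker genes called lower numbered 6, then 13 with a trend, 14 with a trend and robust variances, 10 with dim probe sets left out and 2 to 4 with an array left out. Marker genes called higher numbered 0, then 1 with a trend, with a trend and robust variances, and with dim probe sets left out. The gap between the Clca3a2 probe sets was 0.017 to 0.22 with an array left out, against 0.05, and that between the Clca3a1 probe sets 0.058 to 0.18, against 0.11. The gap between the Clca1 probe sets was 0.10 with log2(value + 16), against 0.25. With the antioxidant response element required to end in a further A, 0 Clca windows matched, against 1. Over all probe sets 285 were lower, and 577 with an intensity trend, 610 with robust variances too, 513 with dim probe sets left out, 177 with the replicate block and 79 to 270 with an array left out. Samples share only replicate numbers, whose deviations correlated at 0.04, 0.16 and 0.08 for replicates 1, 2 and 3, and caNrf2 replicate 1 correlated best with control replicate 3 (0.07). The replicate block also left Sfn uncalled. The cause of these changes was not tested. Readings within the Y-linked range carry no order between genotypes.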
